A study of Mus musculus with 8 samples.

Results

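Tlr2, Tlr4 and Wdfy1 were examined in RNA from whole small intestinal (SI) tissue of mice with and without the chromatin remodeler Smarcad1 in the gut epithelium. They are 3 of the 119 genes in the deposited table, taken by their symbols as a pair of bacterial sensors and an adaptor of the same signalling pathway. The data comprise 4 wild type (WT) and 4 Smarcad1-KO (KO) libraries from untreated male C57BL/6 mice held in a specific opportunistic pathogen free facility. In KO, exons of Smarcad1 framed by loxP sites were removed by Vil-cre, a Cre recombinase driven by the Villin promoter, which is active in epithelial cells, so that other cells of the tissue kept the gene. All KO animals came from a single line, derived from 1 targeted ES cell clone. The labels give the controls only as wild type, and the age of the animals is not given in the sources used here.

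Toll-like receptors are membrane proteins that recognise microbial molecules. TLR2 binds bacterial lipoproteins together with a partner receptor, and TLR4 binds lipopolysaccharide of Gram-negative bacteria with the help of MD-2 and CD14. Ligand binding recruits adaptor proteins, among them MyD88 and TRIF, and leads to activation of the transcription factor NF-kappaB. WDFY1, a protein of endosomes with WD40 repeats and a FYVE domain, helps to bring TRIF to TLR3 and TLR4. In the intestine these receptors are carried by epithelial cells and by immune and stromal cells, and whole tissue holds all of them.

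The table held only genes that the authors had selected with DESeq2, a test on raw counts, at a false discovery rate (FDR) under 0.05 on the same 8 libraries. Each member had therefore been chosen for a difference between KO and WT, and the tests given here describe that difference and are not independent evidence of it. Levels are in RPKM, reads scaled to length in kilobases and to mapped reads, where the length was that of the whole gene span, introns included. The values came from fitted totals of 56981717 to 70345517 mapped reads in WT and 58634587 to 78026422 mapped reads in KO. The targeted gene Smarcad1 was lower in each KO library than in each WT library, with a ratio of mean RPKM of 0.705 (limma adjusted p = 0.01). The labels number the replicates but do not say that they are separate mice, and p-values then measure only the spread between these libraries, which may be technical.

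The 3 genes lie on different chromosomes. Tlr2 (ENSMUSG00000027995.10; GRCm38, chromosome 3, 83836273 to 83841767, minus strand) is a compact gene of 5.5 kb with 1 annotated transcript and 3 exons. Tlr4 (ENSMUSG00000039005.13; chromosome 4, 66827584 to 66930284, plus strand) spans 103 kb, although its principal transcript ends at 66842800 and covers only 15.2 kb. Wdfy1 (ENSMUSG00000073643.11; chromosome 1, 79702262 to 79776143, minus strand) spans 73.9 kb and has 14 annotated transcripts. The other gene of the pathway in the table was Tnfaip3 (ENSMUSG00000019850.11; chromosome 10, 19000910 to 19015657, minus strand), which encodes a ubiquitin-editing enzyme that restrains NF-kappaB signalling and is itself induced by NF-kappaB.

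Promoter sequence is shown for Tlr2, the member with an entry in the RefSeq-derived table (1 of 3 matched), and for Tnfaip3. Both had lower mean levels in KO and both belong to a pathway that ends in NF-kappaB. The lower mean of Tnfaip3 did not pass the test described below. Each window holds the 250 bases before the RefSeq start site on the minus strand (GRCm38.p6), written 5′ to 3′. Capitals mark matches to the NF-kappaB consensus on either strand. The Tlr2 window lies at chr3:83841609-83841858 and the Tnfaip3 window, for the first of its start sites, at chr10:19015411-19015660.
Tlr2: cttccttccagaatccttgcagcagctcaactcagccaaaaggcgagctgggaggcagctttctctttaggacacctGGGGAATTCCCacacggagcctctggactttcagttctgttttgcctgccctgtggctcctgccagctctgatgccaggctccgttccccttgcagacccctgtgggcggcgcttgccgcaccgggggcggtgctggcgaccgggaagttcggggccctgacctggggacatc
Tnfaip3: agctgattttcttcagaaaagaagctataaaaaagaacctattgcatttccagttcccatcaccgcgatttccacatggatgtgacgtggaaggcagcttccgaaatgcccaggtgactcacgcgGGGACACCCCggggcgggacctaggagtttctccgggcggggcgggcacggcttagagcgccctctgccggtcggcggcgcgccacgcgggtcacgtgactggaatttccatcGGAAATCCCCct

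The Tlr2 window held a stretch, from 173 to 163 bases before the start, in which a pair of matches overlapped, offset by 1 base. The Tnfaip3 window held a match from 125 to 116 bases and another from 12 to 3 bases before the start. Of 32851 promoter windows of this length, 3.90% held such a match. The GC box GGGCGG occurred in both windows and in 32.7% of all windows, and the AP-1 motif TGANTCA occurred in the Tnfaip3 window only and in 6.75% of all windows, both strands being searched. The window of another Tnfaip3 start site, at chr10:19011964-19012213, held no match to any of these motifs. The GENCODE gene model places the Tlr2 start further upstream, at 83841767, so the 3′ part of the Tlr2 window lies within the annotated gene. Relative to that start, the overlapping matches lie just upstream and the GC boxes downstream. The Tnfaip3 window lies largely within the annotated span of that gene, although its principal transcript starts at 19015410, directly after the window. The matches are descriptions of the letters and no evidence of binding.

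The receptors moved in opposite directions. Tlr2 fell in KO, Tlr4 rose, and Wdfy1 rose most of the 3. By limma, a linear model with a spread shared across genes, all 3 had an adjusted p under 0.05, against 79.8% of the 119 genes of the table. Genes that rose by this test made up 49.6% of the table, and genes that fell made up 30.3%. In each of the 3 genes the KO and WT values did not overlap, as was the case in 71.4% of the table. Because the table had been selected on this contrast, nothing is read from these shares.

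Tlr2, the lipoprotein receptor, stood at 0.620, 0.423, 0.524 and 0.422 RPKM in WT libraries 1 to 4. It stood at 0.394, 0.304, 0.364 and 0.306 RPKM in KO libraries 1 to 4. The lowest WT and highest KO values lay close together, and WT libraries 1 and 3 stood above the other two. The mean fell from 0.497 ± 0.0948 to 0.342 ± 0.0447 RPKM (SD, n = 4 each), a ratio of 0.688. On the scale of log2(RPKM + 0.01) the change was -0.52 ± 0.17 (SE; 95% interval -0.89 to -0.14; limma adjusted p = 0.0166). An exact two-sided permutation test of the mean RPKM gave p = 0.0286, the smallest that 4 against 4 libraries allow, and 0.04 after adjustment over the 119 genes.

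The fall of Tlr2 rested on the fewest reads of the 3 genes, between 98 and 194 per library. Counting error alone would give an SD of 0.0384 RPKM in WT and 0.0305 RPKM in KO, so that the observed SD was 2.47 times that in WT and 1.47 times that in KO. The exact Poisson 95% interval of WT library 4, from 0.359 to 0.492 RPKM, overlapped that of KO library 1, from 0.335 to 0.460 RPKM. With voom, which weights reads recovered from the RPKM by their precision, the change was as large at -0.52 but the limma adjusted p was 0.0501, just past the threshold. Over the 9 alternatives that kept all libraries, the adjusted p of Tlr2 ran from 0.00675 to 0.0501. These include an exact test on log2(RPKM + 0.01) and the stricter threshold, which repeats the main adjusted p. Such intervals cover counting error only.

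Tlr4, the lipopolysaccharide receptor, stood at 0.0943, 0.0608, 0.0742 and 0.0710 RPKM in WT libraries 1 to 4. It stood at 0.138, 0.124, 0.154 and 0.192 RPKM in KO libraries 1 to 4. All KO values were above all WT values, with KO library 4 the highest and WT library 1 nearest to the KO group. The mean rose from 0.0751 ± 0.0140 to 0.152 ± 0.0296 RPKM (SD, n = 4 each), a ratio of 2.02. The log2 change was 0.93 ± 0.17 (SE; 95% interval 0.54 to 1.31; limma adjusted p = 0.00136). The exact two-sided permutation p was again 0.0286, and 0.04 after adjustment.

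Between 363 and 1539 reads per library stood behind Tlr4. Here the observed SD was 4.07 times that of counting alone in WT and 6.33 times in KO. The Poisson intervals of the nearest libraries did not overlap, since that of WT library 1 ended at 0.103 RPKM and that of KO library 2 began at 0.115 RPKM. The reads of Tlr4 were divided by the full span, which is 6.75 times that of its principal transcript, and this lowers its RPKM.

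Wdfy1, the adaptor protein, stood at 0.260, 0.288, 0.440 and 0.346 RPKM in WT libraries 1 to 4. It stood at 1.02, 0.684, 1.02 and 0.691 RPKM in KO libraries 1 to 4. The groups were far apart, and the KO values fell at 2 levels, libraries 1 and 3 above libraries 2 and 4. The mean rose from 0.333 ± 0.0794 to 0.853 ± 0.191 RPKM (SD, n = 4 each), a ratio of 2.56. The log2 change was 1.33 ± 0.21 (SE; 95% interval 0.87 to 1.79; limma adjusted p = 5.02e-04). The exact two-sided permutation p was 0.0286, and 0.04 after adjustment.

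Wdfy1 had between 1094 and 5560 reads per library, and its SD was 9.34 times that of counting alone in WT and 14.5 times in KO. Its span overlaps exons of a pair of genes on the opposite strand, Gm10555 over 1791 bp and the mitochondrial ribosomal protein gene Mrpl44 over 126 bp. How strand was used in counting is not given in the sources used here, so reads in those stretches are uncertain. No annotated gene overlaps the spans of Tlr2 and Tlr4.

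**Figure D1:**
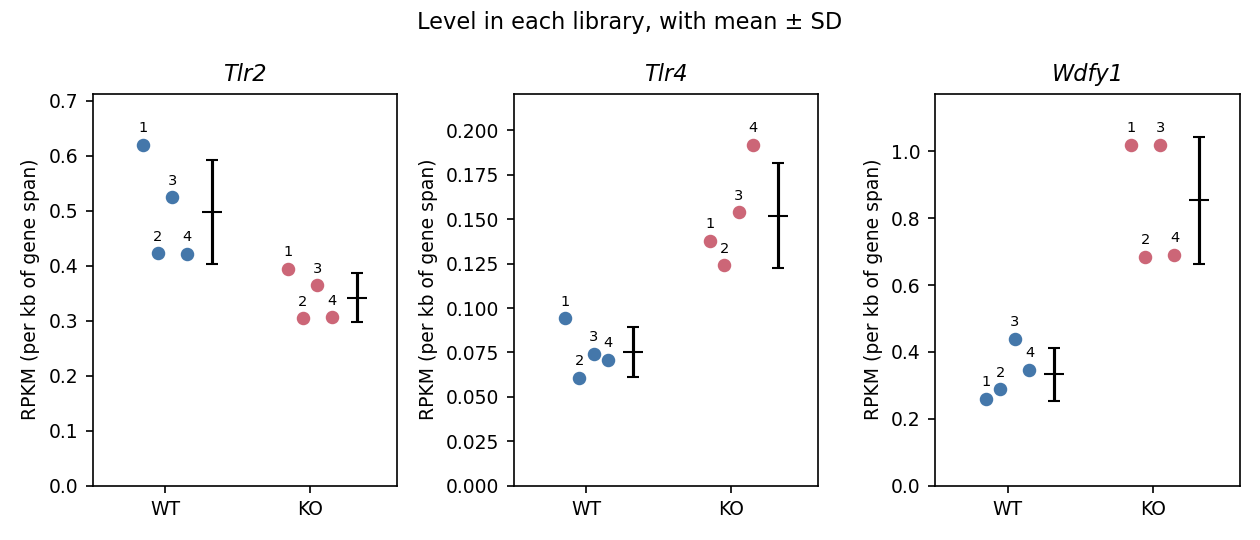
RPKM per kilobase of gene span in each of the 4 WT and 4 KO libraries (points, labelled by replicate number), with the group mean ± SD beside them, each gene on its own linear axis from 0. Tlr2 lies lower in all KO libraries (0.304 to 0.394 RPKM) than in all WT libraries (0.422 to 0.620 RPKM), while Tlr4 and Wdfy1 lie higher in all KO libraries.

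The receptors were set against each other library by library. Because neither overlapped between the groups and they moved in opposite directions, the separation of their ratio was fixed by the values above, and the ratios add only its size in each library. Scaling between libraries does not enter a ratio, since both values come from 1 library. The ratio of Tlr4 to Tlr2 RPKM was 0.152, 0.144, 0.142 and 0.168 in WT libraries 1 to 4. It was 0.349, 0.406, 0.424 and 0.629 in KO libraries 1 to 4. The WT ratios lay within a narrow band although the levels of both receptors varied between WT libraries, and KO library 4, with the highest Tlr4 and nearly the lowest Tlr2, had the highest ratio. On the log2 scale the mean was -2.73 ± 0.11 in WT and -1.18 ± 0.36 in KO (SD, n = 4 each), a difference of 1.54, or 2.92-fold. No test was run on these ratios, because they are formed from members that had been selected.

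Among the WT libraries, the receptors shared their order at the top: library 1 was highest and library 3 next for both Tlr2 and Tlr4. In KO this was not so, since Tlr2 was highest in library 1 and Tlr4 in library 4. With 4 libraries a group, these orders are descriptions only.

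The ratio of Wdfy1 to Tlr2 RPKM changed from 0.419, 0.681, 0.839 and 0.821 in WT to 2.58, 2.25, 2.79 and 2.26 in KO. All KO ratios were above 1 and all WT ratios below it, a log2 difference in means of 1.89. The crossing of 1 held only per kilobase of gene span. Per kilobase of merged exons, described below, Wdfy1 stood above Tlr2 in every WT and KO library. Here KO varied little, with an SD of 0.15 against 0.46 in WT (log2, n = 4 each). The ratio of Wdfy1 to Tlr4 moved least, from a mean log2 value of 2.14 ± 0.47 to 2.48 ± 0.46 (SD, n = 4 each), and the groups overlapped. In all 16 pairs of a KO with a WT library, Tlr2 was lower and both Tlr4 and Wdfy1 higher in KO, which follows from the lack of overlap. Over these pairs the KO to WT ratio ran from 0.491 to 0.935 for Tlr2, from 1.31 to 3.16 for Tlr4 and from 1.56 to 3.92 for Wdfy1.

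**Figure D2:**
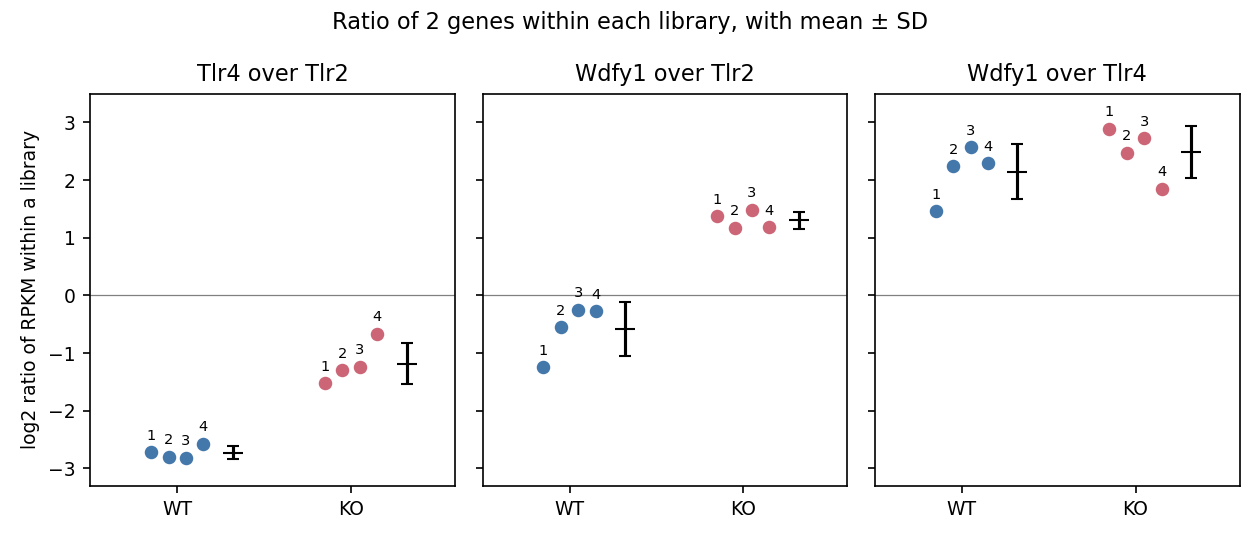
Log2 ratio of the RPKM (per kilobase of gene span) of 2 genes within each library, with the group mean ± SD. Points are labelled by replicate number, with WT in blue and KO in red. The grey line marks equal RPKM on this scale only. Tlr4 over Tlr2 separates the groups, from -2.73 in WT to -1.18 in KO, as does Wdfy1 over Tlr2, whereas the groups overlap for Wdfy1 over Tlr4.

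Fold changes on the log2 scale depended on the pseudocount, as these levels are low. With 1 in place of 0.01 the changes were -0.16 for Tlr2, 0.10 for Tlr4 and 0.47 for Wdfy1, with the same directions and calls. A second scaling was examined because the directions differ between the genes. Median-of-ratios size factors could be computed only from these selected genes, 113 of which had no value of 0. They moved the median change of all 119 genes from -0.07 to -0.23 (log2). Under it Tlr2 changed by -0.67, Tlr4 by 0.78 and Wdfy1 by 1.18, so that each direction and each call held. The calls over the whole table went from 59 higher and 36 lower to 58 higher and 59 lower.

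Within the table, the changes of the members were moderate. Wdfy1 ranked 17th and Tlr4 30th by size among the 59 genes with a higher level in KO, whose median log2 change was 0.93. Tlr2 ranked 23rd among the 60 genes with a lower level, whose median was -0.43. Tlr2 was thus close in size to Smarcad1 itself, at -0.49 ± 0.14 (log2, SE).

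**Figure D3:**
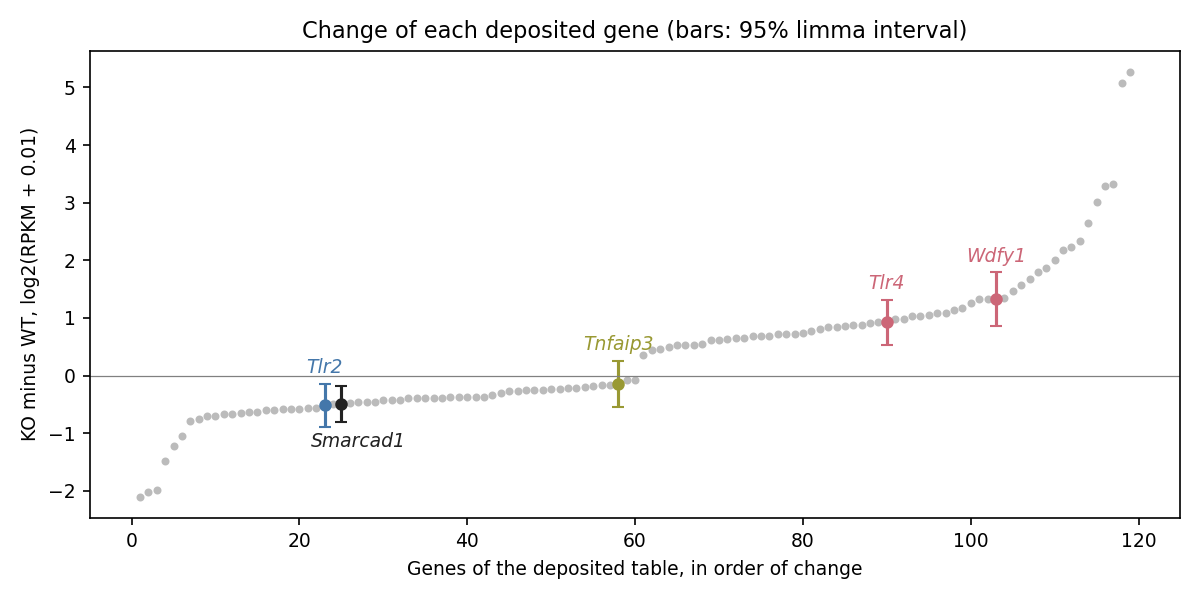
Change of each of the 119 deposited genes, KO minus WT on log2(RPKM + 0.01), in order of size along the horizontal axis (grey points); the named genes carry the 95% limma interval. Tlr4 (0.93) and Wdfy1 (1.33) stand on the higher side, Tlr2 (-0.52) on the lower side beside Smarcad1 (-0.49), and the interval of Tnfaip3 (-0.14) includes 0.

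Of 72 pathway genes looked for, from receptors to target genes, the table held 4, the 3 members and Tnfaip3. Those 72 comprised 12 receptors, 6 co-receptors, 8 adaptors, 16 kinases and ligases, 10 transcription factors, 8 inhibitors and 12 target genes. Of the 4, 2 rose, 1 fell and 1, Tnfaip3, did not pass the limma test. Of all 119 genes, 79.8% passed it, with 49.6% higher and 30.3% lower in KO. All 4, Tnfaip3 included, had been selected by the authors with DESeq2, so nothing is read from this count. The levels of the other pathway genes were not analysed here, because the table holds selected genes only.

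Tnfaip3, the inhibitor, stood at 1.73, 2.35, 2.85 and 1.74 RPKM in WT libraries 1 to 4. It stood at 2.06, 1.75, 2.0 and 1.87 RPKM in KO libraries 1 to 4. The KO values lay within the range of the WT values, and the WT group was the more variable. The mean was 2.17 ± 0.538 RPKM in WT against 1.92 ± 0.139 RPKM in KO (SD, n = 4 each), a log2 change of -0.14 ± 0.18 (SE; limma adjusted p = 0.45). Under median-of-ratios scaling the change was -0.30 with a limma adjusted p of 0.0287, so the call for Tnfaip3 depended on how libraries were scaled.

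Levels can be compared between the 3 genes only per length, and the order turned on which length was used. Per kilobase of span, Tlr2 stood highest, then Wdfy1, then Tlr4 in 4 of 4 WT libraries, and in 4 of 4 KO libraries Wdfy1 stood above Tlr2 and Tlr4. Merged exons make up 54.8% of the span of Tlr2, 8.78% of that of Wdfy1 and 5.41% of that of Tlr4. When the same reads were divided by merged exon length, the order was Wdfy1, Tlr4, Tlr2 in all 8 libraries.

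On the exon scale, Wdfy1 stood at 3.80 ± 0.905 RPKM in WT and 9.71 ± 2.18 in KO (SD, n = 4 each). Tlr4 stood at 1.39 ± 0.260 in WT and 2.80 ± 0.549 in KO on this scale, and Tlr2 at 0.906 ± 0.173 in WT and 0.624 ± 0.0814 in KO (SD, n = 4 each). The highest Tlr2 library, 1.13, met the lowest Tlr4 library, 1.12, in WT, although Tlr4 exceeded Tlr2 within each library. Whether all of these reads lay in exons was not tested. The choice of length leaves each gene's own ratio of KO to WT unchanged.

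**Figure D4:**
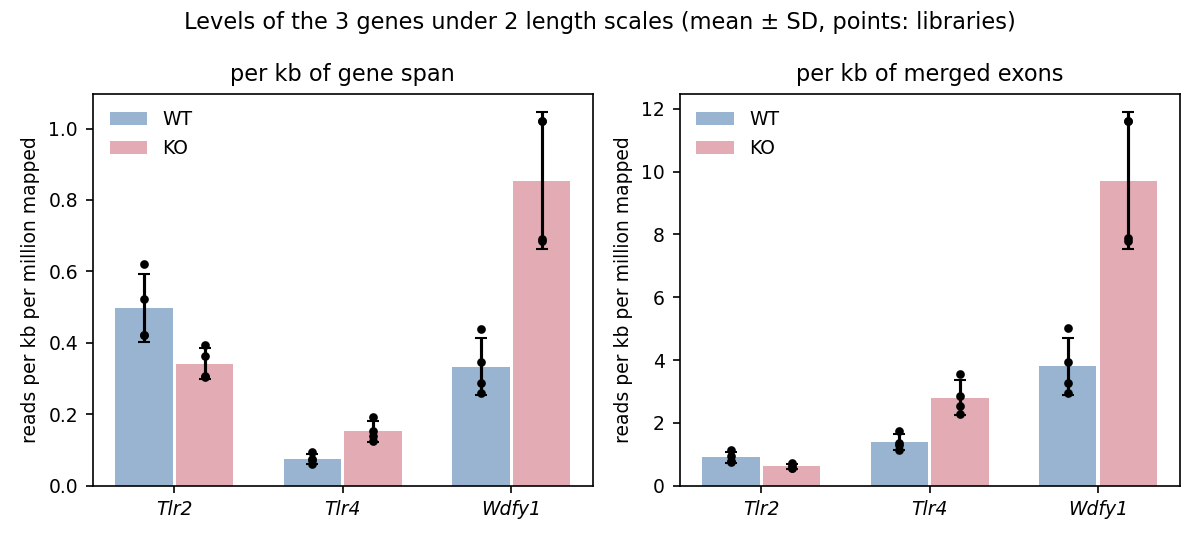
Mean ± SD of the 4 WT (blue) and 4 KO (red) libraries, with each library as a point, for RPKM over the whole gene span (left) and over merged exons (right). Tlr2 is above Tlr4 on the left (0.497 against 0.0751 in WT) and below it on the right (0.906 against 1.39 in WT).

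The genes with the most similar profiles were sought by the root mean square distance over the 8 libraries between profiles centred on their WT mean (log2), among 112 other genes without a value of 0. Nearest to Tlr2 were Tex15, a germ cell gene, at 0.20, Tiam1, an exchange factor for the GTPase Rac1, at 0.20, and Habp2, a secreted serine protease, at 0.23. Nearest to Tlr4 were B3galtl, a glycosyltransferase gene, at 0.22, Pgcp, a secreted carboxypeptidase gene, at 0.24, and Hsf2bp, a meiotic gene, at 0.27. Tex15 and Hsf2bp had WT means of only 0.0231 and 0.00633 RPKM, near the pseudocount.

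Nearest to Wdfy1 were Nxf7 on chromosome X, of the nuclear RNA export factor family, at 0.26, Aplp1 on chromosome 7, an amyloid precursor-like gene, at 0.29, and Nnt on chromosome 13, a mitochondrial transhydrogenase gene, at 0.31. Nxf7 rose from 0.277 ± 0.0418 to 0.713 ± 0.128 RPKM (SD, n = 4 each), with a log2 change of 1.33 like that of Wdfy1. The distance includes the change between KO and WT, on which the table was selected, so near genes share that change. Tlr2 was therefore bound to lie far from Tlr4 and Wdfy1. The members were no close neighbours of each other by this distance, and nothing is read from that. Tlr4 stood 20th in order of distance from Wdfy1, at 0.48, and Tlr2 stood 84th in order of distance from Tlr4, at 1.04.

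Cell content was looked at with marker lists. None of 7 macrophage and monocyte, 5 lymphoid, 3 endothelial, 4 smooth muscle, 3 stromal, 6 enterocyte or 3 goblet cell markers was among the selected genes, so their levels were not analysed here. Of 8 Paneth cell markers 6 were in the table, all 6 with a lower mean in KO, and their summed level ran from 2991 to 4153 RPKM in WT and from 2352 to 3297 RPKM in KO. The 2 ranges overlapped, and the part of this list in the lower Tlr2 of KO was not tested. Of the 119 genes of the table, all selected on this contrast, 60 had a lower level in KO, so nothing is read from these 6. Of 4 crypt markers only Ascl2 was present, at 1.56 to 3.30 RPKM in WT and 1.66 to 1.96 RPKM in KO. Of 4 pancreatic markers 2 were in the table, Clps and Pnliprp2, with sums of 26.2 to 37.1 RPKM in WT and 20.1 to 27.0 RPKM in KO. In whole tissue, fewer cells that carry a transcript and less of it per cell cannot be told apart.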

How the data were processed

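RNA-seq of whole SI tissue was available for 8 libraries, 4 WT and 4 KO by their titles. The authors trimmed reads with Trim Galore 0.4.1, mapped them to GRCm38 with HISAT2 2.0.1, counted uniquely mapped reads over exons of merged transcripts in SeqMonk and deposited RPKM for the 119 genes that passed DESeq2. The deposited FDR, a p-value of the authors' own comparison, and their mean columns were not used.

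All 939 values above 0 gave whole reads within 0.05 of a read when multiplied by gene span and a fitted number of mapped reads, so the length in the RPKM was the span. Whether reads in introns were counted was not settled. The main test was limma 3.58.1 under R 4.3.3, fitted to log2(RPKM + 0.01) of the whole table with genotype as single factor. P-values were adjusted by Benjamini-Hochberg across the 119 genes, and 0.05 was the threshold. The pseudocount lies below each member's level, and fold changes on this scale understate those of low genes. The procedure was tested on simulated data. Single genes were also compared by exact permutation tests, 119 on mean RPKM and 119 on log2(RPKM + 0.01). The tests on the log2 scale are those counted among the alternatives. Gene models came from GENCODE M21 and promoters from RefSeq.

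The members, the pathway and marker lists and the tests were chosen with earlier results of these data known. Genes named were the members, Smarcad1, pathway genes in the table and the 3 nearest profiles per member. Clps and Pnliprp2 were on the marker list. Gm10555 and Mrpl44 are named for their overlap. Alternatives were other pseudocounts, a filter at a mean of 0.1 RPKM, a variance trend, a replicate block, median-of-ratios scaling, voom on recovered reads, exact tests, a threshold of 0.01, medians and leaving out each library. Python 3.11.15, pandas 2.3.3 and scipy 1.17.1 were used.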

Additional observations from a re-analysis of the deposited data

How the results depend on the processing

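Over 51 alternatives for Tlr2, Tlr4 and Wdfy1, 49 kept direction and call, and 0 reversed. The exact tests and the threshold of 0.01 reuse the main log2 change, so they could not reverse it. The exact test also gives its smallest p to any gene without overlap. The exceptions were Tlr2 with voom on recovered reads (-0.52, limma adjusted p = 0.0501) and at a threshold of 0.01 (-0.52, limma adjusted p = 0.0166), where Smarcad1 (-0.49) also missed it and 63 of 119 genes passed in place of 95. The cause of the voom result was not tested. The size of the changes depended on the pseudocount. At 0.1 they were -0.43 for Tlr2, 0.52 for Tlr4 and 1.13 for Wdfy1, and at 1 they were -0.16, 0.10 and 0.47. At 0.1, above the WT level of Tlr4, the log2 difference of the Tlr4 to Tlr2 ratio was 0.95 in place of 1.54. Leaving out 1 library gave log2 changes of -0.59 to -0.41 for Tlr2 (limma adjusted p 0.0166 to 0.047), 0.81 to 1.03 for Tlr4 and 1.22 to 1.47 for Wdfy1, differences of 1.37 to 1.66 for the Tlr4 to Tlr2 ratio, and 84 to 96 calls. Deviations of same-numbered libraries correlated at 0.20, 0.19, -0.15 and -0.039 across 103 genes, which are not independent replicates. These values cannot settle whether the numbers stand for a pairing. For Tlr2, libraries 1 and 3 stood above libraries 2 and 4 in both groups. The full library order differed between the groups for Tlr2 as for Tlr4 and Wdfy1. Neither Tlr4 nor Wdfy1 kept the split of libraries 1 and 3 above libraries 2 and 4 in both groups. With the number as a replicate block, Tlr2, Tlr4 and Wdfy1 changed by -0.52, 0.93 and 1.33 with limma adjusted p of 0.0125, 0.00285 and 9.49e-04, and 91 genes passed. Tlr2 had the fewest reads, 98 to 194 per library.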

Other observations

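KO libraries 1 and 3 stood above KO libraries 2 and 4 in 3 of the 4 pathway genes. For Tlr2 they had 0.394 and 0.364 RPKM against 0.304 and 0.306 RPKM, for Wdfy1 1.02 and 1.02 RPKM against 0.684 and 0.691 RPKM, and for Tnfaip3 2.06 and 2.0 RPKM against 1.75 and 1.87 RPKM. Tlr4 did not follow, with its highest KO value, 0.192 RPKM, in library 4. Median-of-ratios size factors over 113 genes of the table were also higher in KO libraries 1 and 3 (1.06 and 1.08) than in 2 and 4 (0.997 and 1.0), and the part of this shift in the pattern was not tested. The pattern was noticed in these values and was not tested. Of 18 groups of 4 values examined for a library far from the others, covering the members, Tnfaip3, Smarcad1, the ratios and depth, 0 exceeded Dixon's 95% critical value.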
